A study of Homo sapiens with 4 samples.

Results

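Collagen chain genes were taken from the deposited expression table of BLU6864-treated TPC1 cells by symbol, as the protein-coding genes named COL, a collagen type number, A and a chain number. The rule found 43 genes among the 20372 of the table, and it used no measured value, but it was applied with earlier results of these data known. TPC1 is an established line of human papillary thyroid carcinoma with a CCDC6-RET fusion, in which part of CCDC6 drives the RET kinase, and BLU6864 is a selective RET inhibitor. All 4 libraries came from this line, grown in DMEM with 10% FBS and exposed to BLU6864, for 6 h in 2 libraries and for 24 h in 2 libraries. The labels give the dose as 100 µM and the study's methods as 100 nM. The titles of both 24 h libraries, and of neither 6 h library, carry a mark of re-analysis, and what the mark stands for is not given in the sources used here, so that whatever it marks and the time on inhibitor cannot be told apart. Vehicle-treated libraries were not analysed here, and for that reason the inhibitor and the time in culture cannot be told apart either. Total counts were 23917056 and 26829072 at 6 h and 26486456 and 27457040 at 24 h.

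Collagens are secreted or membrane-bound proteins built from α chains with regularly repeated glycines, which wind around each other into a triple helix. The chains of a type are made by separate genes and must meet in the endoplasmic reticulum, where they are hydroxylated, aligned and folded before export. Fibril-forming collagens give tissue its tensile strength, network-forming collagens such as type IV carry the basement membrane under epithelia such as the thyroid follicle, and the remaining classes join these structures to each other or to the cell surface.

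Between 6 h and 24 h the collagen transcripts of TPC1 cells shifted from type VI toward type IV. COL4A1 and COL4A2, the chains of the common basement membrane collagen, rose 3.02-fold and 2.37-fold, COL6A1 of the beaded-filament collagen fell 1.60-fold, COL12A1 of a fibril-associated collagen rose 9.62-fold, and COL17A1 of the hemidesmosome fell 7.95-fold (n = 2 libraries per time, with standard errors on the log2 scale between 0.0870 and 0.0981 for these genes).

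Of the 43 genes, 24 had enough counts to be tested, 9 were counted but not tested, with at most 6 counts in any library, and 10 had no count in any library. The untested genes were COL4A3, COL6A6, COL9A3, COL10A1, COL11A1, COL15A1, COL21A1, COL25A1 and COL28A1, and those without a count were COL1A2, COL2A1, COL3A1, COL5A3, COL6A5, COL9A1, COL19A1, COL20A1, COL22A1 and COL23A1. A gene was called higher or lower where the quasi-likelihood test of edgeR gave a Benjamini-Hochberg adjusted P under 0.05 over all genes tested. At 24 h, 15 collagen genes were called higher and 6 were called lower, and COL4A5, COL6A3 and COL14A1 were not called. Of all 12876 genes tested, 65.6% were called, 33% higher and 32.6% lower, so that 62.5% of the tested collagen genes against 33% were higher, and 25% against 32.6% lower. Genes that reach the test through counts at a single time must differ, and of the 19 collagen genes with at least 10 counts in every library, 11 (57.9%) were called higher and 5 (26.3%) lower, against 33.1% and 32.7% of the 12221 genes with such counts. A log2 change above 1 was reached by 10 of the genes called higher (7.17% of all genes tested), and one below -1 by 3 of the genes called lower (8.5%). With at least 10 counts in every library these were 6 of 19 (31.6%, against 5.97% of all such genes) and 2 of 19 (10.5%, against 7.34%). Libraries of the 2 times did not overlap for 16 collagen genes that were higher at 24 h (41% of all genes tested) and for 6 that were lower (40.8%), or for 12 and 5 of the 19 genes (41.1% and 40.9% of all genes with such counts).

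The median log2 fold change of the tested collagen genes was 0.70, with a range from -2.99 to 3.27, and that of all genes tested was 0.0029. The tested collagen genes have long and GC-rich transcripts, with a median length of 6536 bases and a median GC content of 59.6%, against 3588 bases and 48.1% over all genes tested. With the trend of the fold changes on length and GC content removed, all 24 values moved down and the median was 0.51. COL4A1, COL4A2 and COL6A1 then stood at 1.37, 0.924 and -0.934. Replicate 2 lay above replicate 1 for 20 of the 24 genes at 24 h (83.3%, against 49.9% of all genes tested), and for 8 of 24 at 6 h. Nothing in the labels says that replicates are separate cultures, so that P values measure the spread between these libraries, which may be technical. With 2 libraries per time an exact permutation test of a single value cannot go below P = 0.333.

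**Figure D1:**
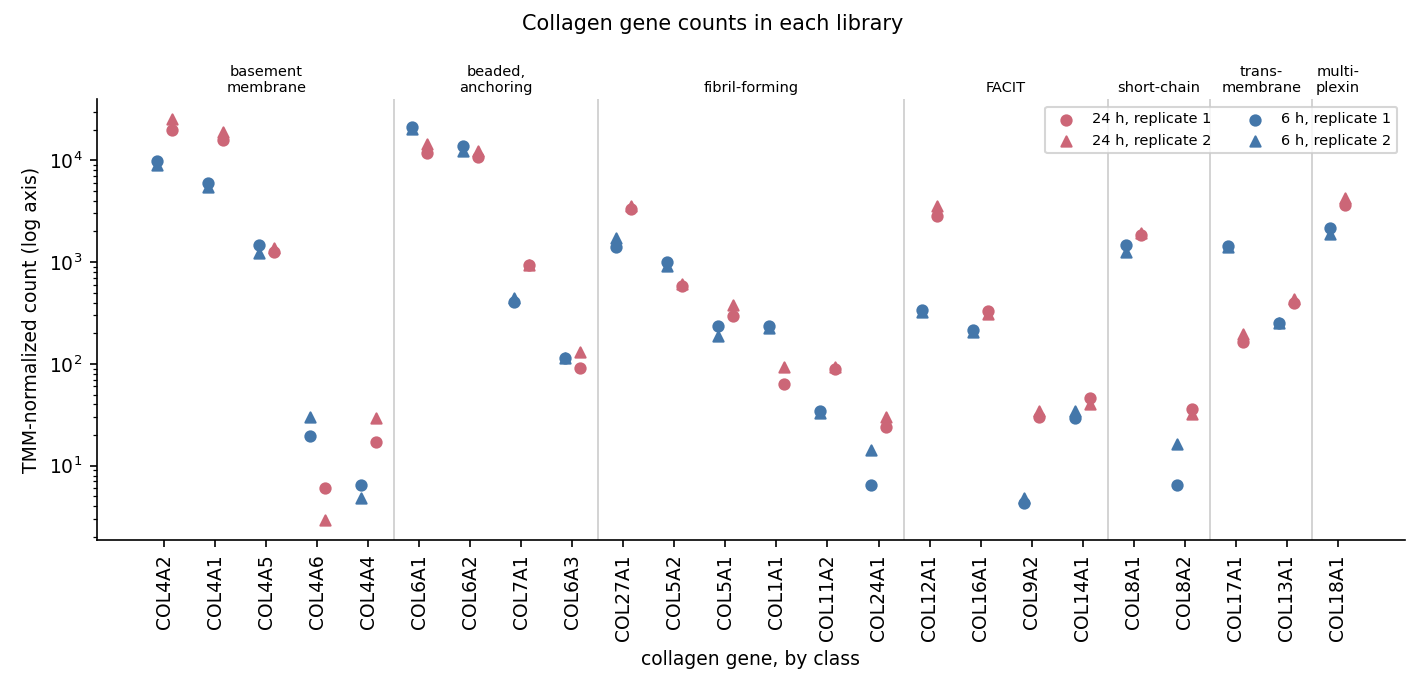
TMM-normalized counts (log axis) of the 24 tested collagen genes, ordered by class, with circles for replicate 1 and triangles for replicate 2, blue for 6 h and red for 24 h. COL4A1 and COL4A2 lie above their 6 h libraries at 24 h, COL6A1 lies below, and COL12A1 is 9.62-fold higher and COL17A1 7.95-fold lower at 24 h.

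Counts of each library are given below as normalized counts, which are counts scaled to a common library size with edgeR's TMM factors, and the plot of counts by library shows them for every tested gene. Type IV collagen forms the network of the basement membrane, and its α1 and α2 chains assemble together in most tissues. COL4A1 (chromosome 13, 110801318 to 110959496, minus strand, hg19) had 6025 and 5488 normalized counts at 6 h and 15815 and 18967 at 24 h. Both 24 h libraries lay far above both 6 h libraries, with a log2 fold change of 1.60 (SE 0.0870, adjusted P = 6.92e-15). COL4A2 (chromosome 13, 110958159 to 111165374, plus strand, hg19) had 9875 and 9060.5 at 6 h and 19603 and 25266 at 24 h. The libraries again did not overlap, and the log2 fold change was 1.24 (SE 0.0947, adjusted P = 7.70e-12).

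COL4A1 and COL4A2 lie head to head and are transcribed away from each other. In the table's annotation they overlap by 1338 bp on opposite strands, and since the strand setting of the counting is not given in the sources used here, reads from the overlap cannot be assigned to either gene. The RefSeq sequence between their start sites (GRCh38.p14, chr13:110307158-110307283, plus strand) is shown because it separates the pair of collagen genes that rose together at the highest counts. Capitals mark the CCAAT box and the GC box motif GGGCGG, each searched on both strands.

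COL4A1-COL4A2 interval: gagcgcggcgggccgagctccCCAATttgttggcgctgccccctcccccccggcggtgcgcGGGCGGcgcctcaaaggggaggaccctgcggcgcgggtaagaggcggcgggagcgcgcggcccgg

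The 126 bases hold each motif 1 time and have a GC content of 80.2%. In all 35116 RefSeq promoter windows cut to this length, 21.1% held CCAAT and 34.6% held GGGCGG.

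The other type IV chains were far less abundant. COL4A5 and COL4A6, whose chains assemble together in the basement membranes of some epithelia and of smooth muscle, also form a head-to-head pair, on chromosome X. COL4A5 had 1470 and 1240 normalized counts at 6 h and 1255 and 1376 at 24 h, and the overlapping libraries gave a log2 fold change of -0.040 (SE 0.0809, adjusted P = 0.677). COL4A6 had 19.4 and 29.7 at 6 h and 5.98 and 2.92 at 24 h (log2 fold change -2.46, SE 0.478, adjusted P = 6.84e-05). It had 6 and 3 counts at 24 h and reached the test through the 6 h libraries alone, so that the count filter partly set its call. COL4A6 overlaps ATG4A by 11122 bp on the opposite strand, and ATG4A itself had a log2 fold change of -1.21. COL4A3 and COL4A4 encode the chains that join COL4A5 in the glomerular basement membrane. COL4A4 had 6.48 and 4.80 at 6 h and 16.9 and 29.2 at 24 h (log2 fold change 2.02, SE 0.465, adjusted P = 0.000451), and COL4A3 was too low for a test. With 6 and 5 counts at 6 h, COL4A4 also reached the test through a single time, that of 24 h.

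Type VI collagen forms beaded filaments next to the basement membrane, from an α1, an α2 and a further, larger chain. COL6A1 (chromosome 21, 47401651 to 47424964, plus strand, hg19) had 21374 and 20114 normalized counts at 6 h and 11673 and 14306 at 24 h. It was the most abundant collagen transcript at 6 h, and both 24 h libraries lay below both 6 h libraries (log2 fold change -0.68, SE 0.0878, adjusted P = 1.90e-07). COL6A2, its neighbour on chromosome 21, had 13889 and 12425 at 6 h and 10837 and 12257 at 24 h. The libraries were separated by a narrow gap, and the log2 fold change of -0.19 (SE 0.0816) passed the threshold with an adjusted P of 0.0454. That call was lost without replicate 1 of the 24 h libraries (log2 fold change -0.094, adjusted P = 0.486) and without replicate 1 of the 6 h libraries (-0.11, adjusted P = 0.266), while the value with the length and GC trend removed was -0.43.

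COL6A3, the large chain of type VI, was low beside the other chains, with 113 and 114 normalized counts at 6 h and 90.7 and 130 at 24 h. Its libraries overlapped, and the log2 fold change was -0.040 (SE 0.172, adjusted P = 0.852). Of the alternative large chains, COL6A5 had no count and COL6A6 was too low for a test. COL7A1, which forms the anchoring fibrils that tie the basement membrane of skin to the dermis, had 404 and 442 at 6 h and 934 and 942 at 24 h. It rose by a log2 fold change of 1.15 (SE 0.0878, adjusted P = 8.72e-12), which became 0.75 with the length and GC trend removed.

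Levels were compared between genes as normalized counts per kilobase of the longest protein-coding transcript. At 6 h, COL6A1 led with 4936 ± 212 counts per kilobase (SD, n = 2), followed by COL6A2 with 3819 ± 301, COL4A2 with 1469 ± 89.4 and COL4A1 with 880 ± 58.1, and these 4 levels were separated by more than their SDs. At 24 h the order was COL4A2 with 3480 ± 621, COL6A2 with 3352 ± 291, COL6A1 with 3090 ± 443 and COL4A1 with 2659 ± 341. Each neighbour in the 24 h order differed from the next by less than the larger of their SDs, so that no chain had a clear lead. COL18A1 followed in the fifth place at both times.

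The share of each chain in the summed collagen counts per kilobase showed the same shift in every library. COL4A1 and COL4A2 took 6.95% and 11.6% in replicate 1 and 6.86% and 11.5% in replicate 2 at 6 h. At 24 h they took 17.8% and 22.3% in replicate 1 and 17.8% and 24.1% in replicate 2. COL6A1 took 38.4% and 39.1% at 6 h and 20.4% and 20.9% at 24 h, and COL6A2 took 30.4% and 29.5% and then 23.1% and 21.8%. Shares are parts of a whole, and a gain of one chain lowers the share of all others. The plot of shares by library shows that the 39 other genes together made up a small remainder at both times.

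**Figure D2:**
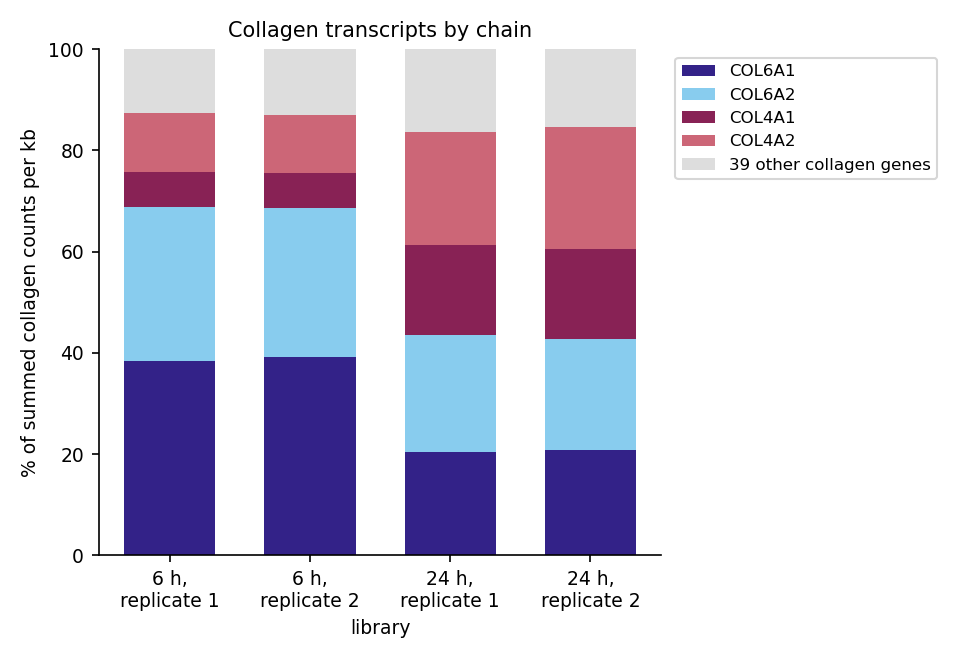
Share of COL6A1, COL6A2, COL4A1, COL4A2 and the 39 other collagen genes in the summed collagen counts per kilobase (% of the sum) in each of the 4 libraries. COL6A1 takes 38.4% and 39.1% at 6 h and 20.4% and 20.9% at 24 h, while COL4A2 goes from 11.6% and 11.5% to 22.3% and 24.1%.

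Collagen genes together took 0.240% (95% exact binomial interval 0.238 to 0.242%) and 0.223% (0.221 to 0.225%) of all counts at 6 h, and 0.280% (0.278 to 0.282%) and 0.333% (0.330 to 0.335%) at 24 h. These intervals cover counting error only, and the replicates of a time differed by more than they allow. The means were 0.232 ± 0.012% at 6 h and 0.306 ± 0.037% at 24 h (SD, n = 2), and the libraries of the 2 times did not overlap. In bulk RNA, fewer cells with a transcript and less of it per cell cannot be told apart.

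The fibril-associated collagens with interrupted helices, or FACIT collagens, sit on the surface of fibrils formed by other types. COL12A1 (chromosome 6, 75794042 to 75915767, minus strand, hg19), a long FACIT chain found in dense connective tissue and in tissue under tension, had 337 and 323 normalized counts at 6 h and 2814 and 3530.5 at 24 h. The 24 h libraries stood far above the 6 h libraries, with a log2 fold change of 3.27 (SE 0.0981, adjusted P = 1.37e-20), the largest rise among the collagen genes tested. Its rank by counts per kilobase went from 15 at 6 h to 8 at 24 h. COL9A2, a chain of the FACIT collagen of cartilage, had 4.32 and 4.80 at 6 h and 29.9 and 34.1 at 24 h (log2 fold change 2.77, SE 0.428, adjusted P = 2.80e-06). It had 4 and 5 counts at 6 h and reached the test through the 24 h libraries alone, so that the count filter partly set its call.

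The partner chains of COL9A2 were at or near 0, with no count of COL9A1 in any library and COL9A3 too low for a test. COL16A1, a widely expressed FACIT chain, had 217 and 203 at 6 h and 333 and 309 at 24 h. It rose by a log2 fold change of 0.61 (SE 0.114, adjusted P = 4.06e-05), or 0.31 with the length and GC trend removed. COL14A1, which binds fibrils near COL12A1 in many tissues, had 29.1 and 34.5 at 6 h and 45.8 and 39.9 at 24 h, and its log2 fold change of 0.42 (SE 0.258) was not called (adjusted P = 0.155).

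COL17A1 (chromosome 10, 105791044 to 105845760, minus strand, hg19) encodes a transmembrane collagen of hemidesmosomes, the junctions that hold epithelial cells to the basement membrane. It had 1443 and 1413 normalized counts at 6 h and 163 and 196 at 24 h. Both 24 h libraries lay far below both 6 h libraries, and the log2 fold change of -2.99 (SE 0.0980, adjusted P = 9.55e-20) was the largest fall among the collagen genes tested with all libraries in the fit. Without replicate 1 of the 24 h libraries it was -2.86, and that of COL4A6, at few counts, was -3.03. Its rank by counts per kilobase went from 6 at 6 h to 15 at 24 h. COL13A1, a transmembrane collagen of cell adhesion sites and the neuromuscular junction, had 255 and 249 at 6 h and 400 and 431 at 24 h, and rose by a log2 fold change of 0.72 (SE 0.105, adjusted P = 1.25e-06). Of the remaining transmembrane chains, COL25A1 was too low for a test and COL23A1 had no count.

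The sequences upstream of the start sites of COL12A1 and COL17A1 are shown because these genes had the largest rise and, with all libraries, the largest fall. Each is the 250 bases before the RefSeq start, written in the direction of transcription (GRCh38.p14, minus strand, chr6:75206054-75206303 for COL12A1 and chr10:104085881-104086130 for COL17A1). Capitals mark GGGCGG in COL12A1 and CCAAT in COL17A1, both as the complementary strand reads them.

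COL12A1 upstream: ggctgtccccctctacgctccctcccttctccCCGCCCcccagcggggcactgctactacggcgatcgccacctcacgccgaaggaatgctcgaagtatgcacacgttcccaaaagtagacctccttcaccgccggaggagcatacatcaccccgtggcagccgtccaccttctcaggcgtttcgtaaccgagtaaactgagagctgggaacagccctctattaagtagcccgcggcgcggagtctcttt

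COL17A1 upstream: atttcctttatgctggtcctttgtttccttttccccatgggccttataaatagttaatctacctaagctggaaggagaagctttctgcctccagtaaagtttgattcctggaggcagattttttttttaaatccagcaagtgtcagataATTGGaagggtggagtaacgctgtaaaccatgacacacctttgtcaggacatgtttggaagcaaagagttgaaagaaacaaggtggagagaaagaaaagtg

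The COL12A1 sequence has a GC content of 61.2% and the COL17A1 sequence 40.4%. Neither holds the AP-1 motif TGANTCA or the SMAD motif CAGACA on either strand. Windows were present for 31 of the 43 collagen genes, 43 windows in all. Of these, 24 (55.8%) held GGGCGG, 12 (27.9%) CCAAT, 3 (6.98%) CAGACA and 1 (2.33%) TGANTCA. The shares over all 35116 promoter windows of 250 bases were 42.6%, 32.0%, 13.6% and 6.57%. A match of letters is a description of the window and not a binding site.

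Of the 11 fibril-forming chain genes, 6 were tested, of which 4 were called higher and 2 lower (33% and 32.6% of all genes tested). COL1A1, the major chain of type I collagen in bone, skin and tendon, had 235 and 227 normalized counts at 6 h and 62.8 and 92.4 at 24 h. The libraries did not overlap, and the gene fell by a log2 fold change of -1.57 (SE 0.159, adjusted P = 2.19e-09). COL1A2, whose chain completes type I collagen, and COL3A1, the chain of type III collagen, had no count in any library, which allows at most 3.24 normalized counts in the shallowest library, or 0.639 and 0.590 counts per kilobase.

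The genes of type V collagen, which starts and limits the width of type I fibrils, moved in opposite directions. COL5A1 had 236 and 189 normalized counts at 6 h and 298 and 379 at 24 h, and rose by a log2 fold change of 0.68 (SE 0.130, adjusted P = 5.68e-05), or 0.34 with the length and GC trend removed. COL5A2 had 1002 and 922 at 6 h and 584 and 613 at 24 h, and fell by 0.68 on the log2 scale (SE 0.0841, adjusted P = 7.37e-08). COL5A3 had no count.

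COL27A1, a fibril-forming chain of developing cartilage and other tissues, was the most abundant gene of its class at both times. It had 1393 and 1705 normalized counts at 6 h and 3336 and 3571 at 24 h, without overlap, and rose by a log2 fold change of 1.16 (SE 0.0820, adjusted P = 1.90e-12). Its near relative COL24A1 had 6.48 and 14.4 at 6 h and 23.9 and 30.2 at 24 h (log2 fold change 1.34, SE 0.387, adjusted P = 0.00385). With 6 and 15 counts at 6 h, COL24A1 reached the test only with the 24 h libraries, so that the count filter partly set its call. Its value was 2.04 without replicate 2 of the 6 h libraries. The call was lost without replicate 1 of the 6 h libraries (log2 fold change 0.905) and without replicate 2 of the 24 h libraries (1.16). It was also lost in DESeq2 (adjusted P = 0.0755). COL11A2, a chain of the minor cartilage collagen XI, had 34.5 and 32.6 at 6 h and 89.7 and 93.4 at 24 h (log2 fold change 1.45, SE 0.213, adjusted P = 1.40e-06). The other chain genes of type XI and type II, COL11A1 and COL2A1, were too low for a test and without a count, respectively.

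The short-chain collagens of type VIII form hexagonal sheets in vessel walls and in the Descemet membrane of the cornea. COL8A1 had 1463 and 1262 normalized counts at 6 h and 1842 and 1942 at 24 h, and rose by a log2 fold change of 0.48 (SE 0.0765, adjusted P = 5.21e-06). COL8A2 had 6.48 and 16.3 at 6 h and 35.9 and 32.1 at 24 h (log2 fold change 1.53, SE 0.365, adjusted P = 0.000648). The 6 h libraries of COL8A2 were far apart, with 6 and 17 counts. The gene reached the test only with the 24 h libraries, so that the count filter partly set its call. Its value was 2.36 without replicate 2 of the 6 h libraries and 1.05 without replicate 1 of them. COL18A1, the basement membrane collagen whose end fragment is endostatin, had 2159 and 1906 at 6 h and 3624 and 4285 at 24 h. It rose by a log2 fold change of 0.96 (SE 0.0820, adjusted P = 7.98e-11), or 0.58 with the length and GC trend removed. COL18A1 overlaps SLC19A1 by 20149 bp on the opposite strand, and SLC19A1 had a log2 fold change of 0.46.

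**Figure D3:**
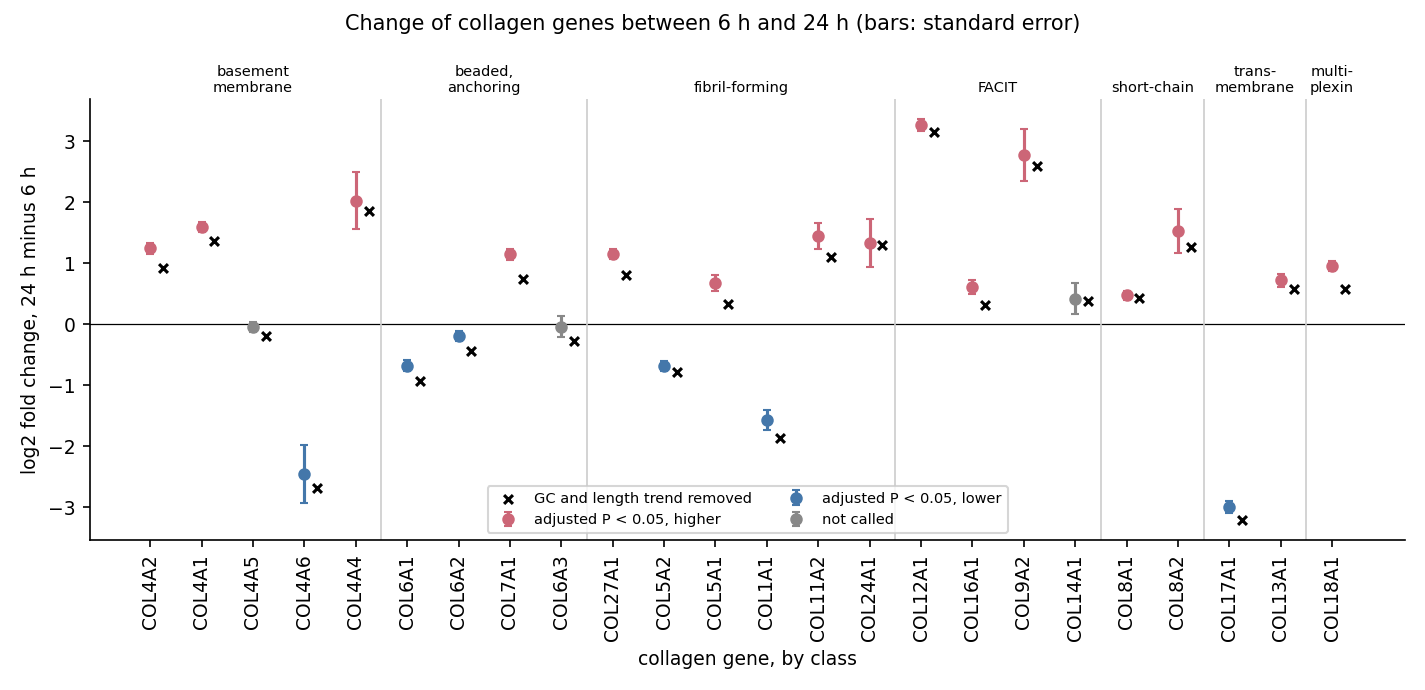
Log2 fold change of 24 h minus 6 h for the 24 tested collagen genes by class, with the standard error as bars, red for genes called higher, blue for genes called lower and grey for genes not called. Crosses give the value once the dependence on GC content and length is taken out, and they lie below the fitted value for all 24 genes, without a change of direction among the 21 genes called.

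The ratios between chains that assemble together were set side by side for 6 pairs, without a test, and the libraries of the 2 times did not overlap for any pair. The ratio of COL4A1 to COL4A2, in counts per kilobase, was 0.601 and 0.597 at 6 h and 0.795 and 0.740 at 24 h. Both chains rose, COL4A1 by more, and the ratio was 1.28 times its 6 h level. The ratio of COL6A1 to COL6A2 was 1.26 and 1.33 at 6 h and 0.883 and 0.957 at 24 h. Whether the 24 h ratio lies below 1 depends on the length used, since per kilobase of coding sequence it was 1.07 and 1.16, against 1.52 and 1.60 at 6 h.

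The ratio of COL6A3 to COL6A1 was 0.0021 and 0.0023 at 6 h and 0.0031 and 0.0036 at 24 h, so that the large type VI chain stayed under 1% of the α1 chain in every library. The ratio of COL5A1 to COL5A2 was 0.191 and 0.166 at 6 h and 0.413 and 0.4995 at 24 h, which is 2.56 times the 6 h level. COL4A5 to COL4A6 went from 78.2 and 43.1 to 217 and 487, and COL8A1 to COL8A2 from 185 and 63.3 to 42.0 and 49.5, with COL4A6 and COL8A2 at few counts. For COL8A1 to COL8A2 the SD of the 6 h ratios (85.9) was larger than the difference between the times. No ratio is given for COL1A1 to COL1A2, since COL1A2 had no count.

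**Figure D4:**
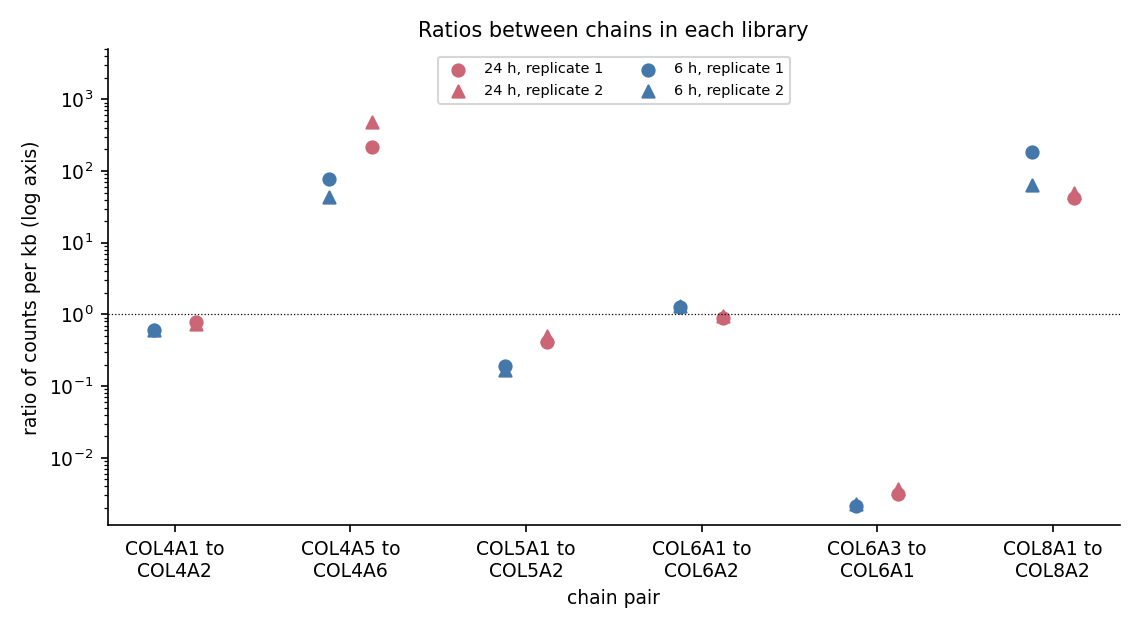
Ratio of counts per kilobase (log axis) between chains of a collagen type in each library, blue for 6 h and red for 24 h, circles for replicate 1 and triangles for replicate 2, with a dotted line at a ratio of 1. The ratio of COL5A1 to COL5A2 goes from 0.191 and 0.166 to 0.413 and 0.4995, and that of COL6A1 to COL6A2 from above to below the line on this length.

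The genes that modify, export, trim, cross-link and bind collagen were taken from 5 lists with 45 genes, of which 43 were tested. Of these, 13 were called higher and 14 lower, against 33% and 32.6% of all genes tested, with a median log2 fold change of -0.053. All 5 lists were chosen with earlier results of these data known. The first list covers the hydroxylation of the chains before they fold. Some of its members, such as CRTAP and COLGALT1, are not hydroxylases. Among its 14 genes, 3 were called higher and 3 lower, against the same 33% and 32.6%. P4HA1, the catalytic subunit of the main collagen prolyl 4-hydroxylase, had 18289 and 15680 normalized counts at 6 h and 3493 and 3354 at 24 h. It fell by 2.31 on the log2 scale (SE 0.0845, adjusted P = 1.06e-18). P4HB, the subunit that pairs with it, had a log2 fold change of -0.048 (adjusted P = 0.616) and P4HA2, the alternative catalytic subunit, -0.053 (adjusted P = 0.562).

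P3H2, listed as LEPREL1, is a prolyl 3-hydroxylase known for its action on type IV collagen. It had 2863 and 2840 normalized counts at 6 h and 14732 and 13263 at 24 h (log2 fold change 2.295, SE 0.0796, adjusted P = 3.37e-19). P3H1, listed as LEPRE1, which acts on fibril-forming chains, fell (log2 fold change -0.44), while its partner CRTAP rose (0.51). The lysyl hydroxylase PLOD1 fell (-0.21), and PLOD2 and PLOD3 were not called (-0.096 and -0.029).

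Of 9 genes for folding and export, 2 were called higher and 5 lower (33% and 32.6% of all genes tested). FKBP10, a collagen chaperone, had 9969 and 9245 normalized counts at 6 h and 17916 and 18310 at 24 h (log2 fold change 0.91, SE 0.0775, adjusted P = 6.77e-11). Its relative FKBP14 fell from 2020 and 2112 to 807 and 783 (log2 fold change -1.38, SE 0.0732, adjusted P = 4.01e-15). SERPINH1, the chaperone HSP47, rose (log2 fold change 0.26). MIA3, which loads collagen into large transport vesicles, and KLHL12, which enlarges those vesicles, fell (-0.19 and -0.31).

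All 7 tested genes for the removal of propeptides were called, 4 higher and 3 lower, where 65.6% of all genes tested were called. TLL1, with 3 counts in each 6 h library, reached the test through the 24 h libraries alone. ADAMTS14, with 12 and 9 counts at 24 h, reached it only with the 6 h libraries. The count filter thus partly set both calls. ADAMTS3, a procollagen N-proteinase, had 572 and 461 normalized counts at 6 h and 2791 and 2941 at 24 h (log2 fold change 2.48, SE 0.0865, adjusted P = 3.89e-19). ADAMTS14, of the same family, had 128 and 80.6 at 6 h and 11.96 and 8.76 at 24 h (log2 fold change -3.31, SE 0.309, adjusted P = 4.55e-10). The C-proteinases BMP1 and TLL2 rose (log2 fold changes 0.31 and 0.91), and TLL1 had 23 and 18 counts at 24 h. The C-proteinase enhancers PCOLCE and PCOLCE2 fell (-1.51 and -1.32).

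Among the 5 lysyl oxidases, which cross-link collagen and elastin outside the cell, 2 were called, both higher (33% of all genes tested). LOXL4 had 359 and 330.03 normalized counts at 6 h and 897 and 908 at 24 h, and LOX had 120 and 118 at 6 h and 249 and 250 at 24 h. Their log2 fold changes were 1.39 (SE 0.0904, adjusted P = 3.04e-13) and 1.07 (SE 0.132, adjusted P = 7.80e-08), while LOXL2, the most abundant member by count, was not called (0.17, adjusted P = 0.0758). Of 8 collagen receptor genes, 2 were called higher and 3 lower, near the 33% and 32.6% of all genes tested. DDR1, the discoidin receptor of epithelial cells, and the endocytic receptor MRC2 rose (log2 fold changes 0.71 and 0.68). DDR2, the discoidin receptor of mesenchymal cells, had 116 and 142 normalized counts at 6 h and 21.9 and 27.2 at 24 h (log2 fold change -2.39, SE 0.220, adjusted P = 3.61e-10). The integrin subunits ITGA2 and ITGB1 fell (-1.63 and -0.55).

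**Figure D5:**
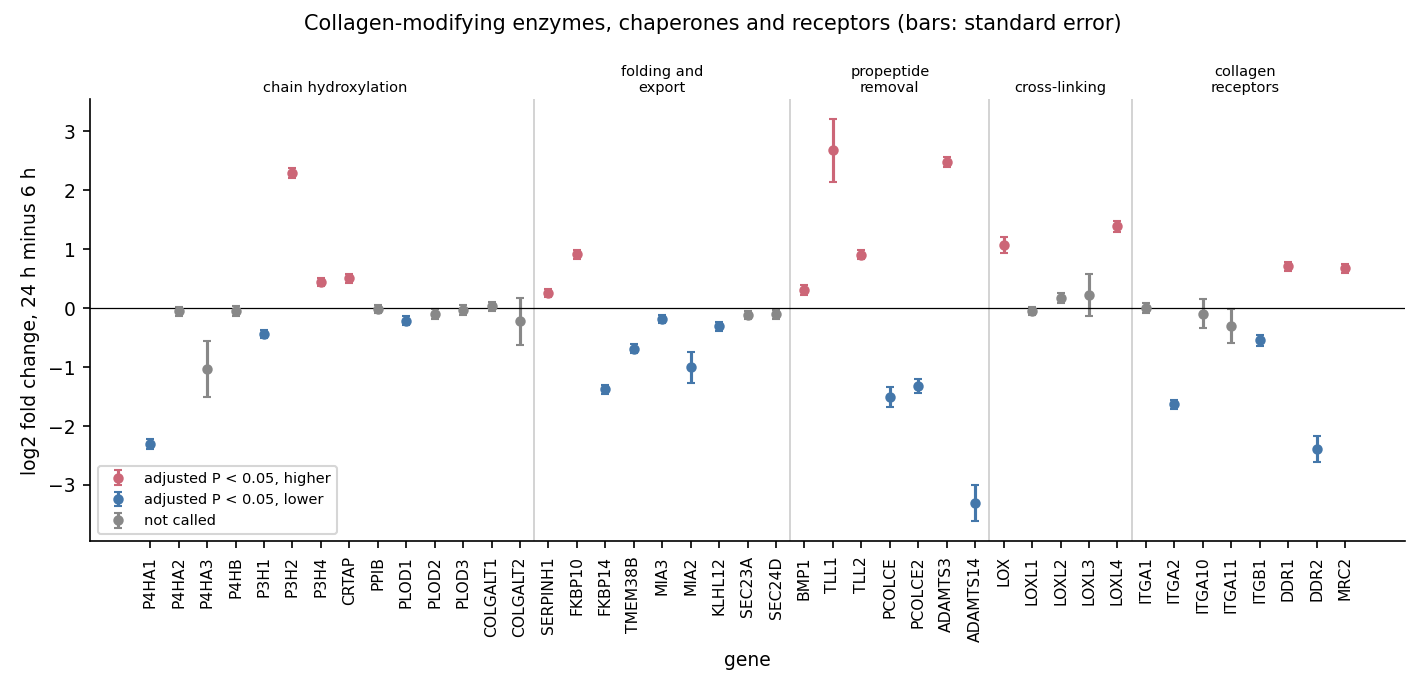
Log2 fold change of 24 h minus 6 h, with the standard error as bars, of the 43 tested genes that modify, fold, export, trim, cross-link or bind collagen, coloured as higher (red), lower (blue) or not called (grey) at an adjusted P of 0.05. P4HA1 lies at -2.31 and P3H2 at 2.295 in the hydroxylation list, and ADAMTS3 at 2.48 and ADAMTS14 at -3.31 in the propeptide list.

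Markers of the labelled cell type and of other cells that make collagen were read from lists chosen with earlier results of these data known. The thyroid transcription factor gene PAX8 had between 19124 and 22978 counts, TG between 98 and 245, and NKX2-1 and TSHR had none in any library. The keratins KRT8 and KRT18 were present, while EPCAM and CDH1 had at most 11 counts. Of 7 fibroblast markers, POSTN had no count and DCN and FAP at most 1. The 3 tested were PDGFRB, called lower (32.6% of all genes tested), and LUM and THY1, called higher (33%). THY1, with 0 and 3 counts at 6 h and 22 and 28 at 24 h, reached the test through the 24 h libraries alone. The 7 markers summed to 379 and 405 normalized counts at 6 h and 215 and 229 at 24 h, of which PDGFRB made up 327 and 358 at 6 h and 111 and 134 at 24 h. Of 6 endothelial markers, 5 were found among the protein-coding genes, without PECAM1. KDR and VWF were tested and both were called lower (32.6% of all genes tested). VWF, with 16 and 11 counts at 6 h and 3 and 5 at 24 h, reached the test through the 6 h libraries alone. The 5 markers summed to 549 and 515 normalized counts at 6 h and 54.8 and 28.2 at 24 h. Most of these counts came from KDR, and CDH5 and CLDN5 had at most 1 count. Of 6 white blood cell markers, none had more than 5 counts. The part of such cells in the collagen values was not tested.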

How the data were processed

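RNA was sequenced from TPC1 cells after 6 h or 24 h on BLU6864 (2 libraries each) as 50 bp single-end reads per the labels (the methods give paired-end reads of 100 cycles). The authors aligned reads with STAR (version 2.3 and hg19 in the submitters' processing notes, 2.7.7 in the methods) and deposited raw counts per gene. The program and strand setting of the counting are not given in the sources used here. They also deposited a normalized signal (counts divided by DESeq2 size factors) and the columns of their own comparison, namely the Wald score, the p-value before and after adjustment, and the log2 change and its error, none of which were used.

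The test on counts was that of edgeR 4.0.16 (R 4.3.3, TMM factors, filterByExpr, which kept 12876 genes, and the quasi-likelihood test of 24 h against 6 h on all 4 libraries, without covariates). Standard errors are the log2 change over the root of F. Replicates differed by more than sampling noise (chi-square per degree of freedom 7.65 at 24 h and 10 at 6 h). Lengths and GC content are those of the longest protein-coding transcript in GENCODE v44, and positions of genes follow the table. COL26A1, a polymorphic pseudogene there, is outside the rule. Values in every library are given for genes called with an absolute log2 fold change over 1, the 10 highest per kilobase and the chains of the ratios, and other members follow by class. Of the synthesis lists, the 3 largest rises and falls and members needed for their role are named. Members and gene lists were chosen with earlier results of these data known. The scripts were tested on simulated data. Alternatives were DESeq2 1.42.0, other scalings, filters and cutoffs, a replicate block, libraries left out, and removal of a trend on GC content and length (splines with 4 degrees of freedom). Floors are 3 counts and cover counting error only. Plots used matplotlib 3.10.9.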

Additional observations from a re-analysis of the deposited data

How the results depend on the processing

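No call changed direction under any alternative. The number of collagen genes called higher lay between 11 and 15 and of those called lower between 4 and 6, where the lowest values came from the filter of at least 10 counts in every library, which leaves 19 of the genes. DESeq2 gave 14 and 6 (21.3% and 21.6% of all genes with a count), the cutoffs of the methods (absolute log2 fold change over 0.5 and unadjusted P under 0.01) 14 and 5 (17.4% and 17.7% of all genes tested), and an adjusted P under 0.01 gave 15 and 5 (28% and 27.8%). With a block for replicate number the counts were 15 and 6 (35.1% and 34.5%), and the block changed no call on a collagen gene. Same-numbered libraries deviated with a correlation of 0.0691, while more of all genes were called with the block than without it (33% and 32.6%). Whether same-numbered libraries are paired is not given in the sources used here. The synthesis genes varied from 10 to 14 higher and from 10 to 15 lower. The shares over all genes varied from 17.4% to 35.1% higher and from 17.7% to 35.3% lower. Without the 4 tested members that overlap another gene of the table, a choice made after seeing the data, 12 were higher and 5 lower (33% and 32.6% of all genes tested). The median log2 fold change of the collagen genes was 0.616 with at least 10 counts in every library, 0.506 with the trend on GC content and length removed, and between 0.631 and 0.813 with 1 library left out. The calls of COL6A2 and COL24A1 were the only calls on single collagen genes lost when a library was left out. COL6A2 was also lost under upper quartile scaling (adjusted P = 0.0956), with at least 10 counts in every library (0.0543), and under both sets of cutoffs, and COL8A1 was lost under the cutoffs of the methods. The cause was not tested. The trend removal gave no test, since it has no error of its own. Depth limits the 19 genes at or near 0, for which no difference was detectable, and none of them was called with the filter on low counts left out.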

Other observations

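Other proteins carry a collagen-like stretch without being counted as collagens, among them complement component C1q and its relatives, collectins, ficolins and class A scavenger receptors. In a list of 30 such genes, chosen after their values were seen, 13 were tested, 11 had no count in any library, 5 were called higher at 24 h and 4 lower (edgeR, Benjamini-Hochberg adjusted P under 0.05), where 33% and 32.6% of all genes tested were called. SCARA3, a scavenger receptor-like protein of the oxidative stress response, had 4867 and 5469 counts at 6 h and 11419 and 11352 at 24 h (log2 fold change 1.09, adjusted P = 5.79e-13). CTHRC1, a secreted protein with a short collagen-like stretch, had 355 and 381 counts at 6 h and 32 and 26 at 24 h (log2 fold change -3.71, adjusted P = 1.04e-16). C1QTNF2, called lower, had 12 and 11 counts at 6 h and none at 24 h, and reached the test through the 6 h libraries alone. MARCO and MBL2, both called higher, had 7 and 3 and 13 and 9 counts at 6 h. At 24 h MARCO had 18 and 11 and MBL2 25 and 39, and they reached the test only with the 24 h libraries. The count filter thus partly set the calls of C1QTNF2, MARCO and MBL2. C1QTNF6 was called lower (log2 fold change -0.34), while C1QTNF1, the most abundant of the C1q-related genes by count, was not called (-0.037, adjusted P = 0.665). The chains of C1q itself, C1QA, C1QB and C1QC, had no count.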
